A study of Mus musculus with 30 samples.

Results

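The effect of diet that HFD (high-fat diet) females and males have in common was measured in 24 of the 30 colon libraries of the study. The 12 HFD libraries (6 HFD F and 6 HFD M) were compared with the 12 CD (control diet) libraries (6 CD F and 6 CD M), with sex as a covariate, and the libraries were chosen by diet and sex alone. Gene expression was measured by RNA-seq of total RNA from which ribosomal RNA had been removed, with 1 library for each mouse and read pairs of 51 bases. The 6 remaining libraries, from HFD males given 17β-estradiol (E2, 0.5 mg/kg), were left out of every comparison.

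All mice of these 4 groups were C57BL/6J, 5 to 6 weeks old at the start, and were kept on a 12-h light and dark cycle. CD mice were fed a matched low-fat diet with 10% of its energy from fat and HFD mice a diet with 60% from fat, for 13 weeks. Both diets were combined with vehicle, given as 9 intraperitoneal injections in the last 3 weeks. The females were not ovariectomized, the estrous cycle was not followed, and food intake was not recorded. The study states that the mice were killed at the same time of day, but the hour is not given for each mouse.

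The colon is lined by absorptive colonocytes, mucus-secreting goblet cells and dividing crypt cells, and its wall also holds smooth muscle, plasma cells that secrete IgA and other immune cells. Like most tissues it runs a circadian clock, in which Bmal1 (Arntl) with Clock or Npas2 activates genes through E-boxes, the period and cryptochrome proteins and Ciart hold this activity back, and the Rev-erb receptors (Nr1d1 and Nr1d2) repress Arntl in turn. Clock output reaches other genes through the PAR bZIP factors Dbp, Tef and Hlf, which bind D-boxes in competition with the repressor Nfil3. Dietary fatty acids act on gene expression in intestinal epithelium in part through the PPAR receptors, whose known targets include Angptl4, Cpt1a and Pdk4.

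Counts on genes ranged from 9229178 to 14926918 in the CD libraries and from 8667177 to 14283233 in the HFD libraries, with a median of 11298547. Mitochondrial genes took 27.8% to 38.0% of the counts. Levels are given below as TPM, a measure corrected for the length of a gene and the depth of a library, whereas tests used the counts. Of the defining markers of colon epithelium, Muc2 was at 1210.1 to 2713 TPM, Vil1 at 109.6 to 181 TPM and Slc26a3 at 107 to 503 TPM in the 24 libraries. Cdx2, an intestinal homeobox factor, was close to absent, with a median of 0.0638 TPM and 0 counts in 5 libraries.

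Before any result is given, 6 of the 12 HFD libraries have to be described, since they stood apart in genes of stratified squamous epithelium, the lining of skin and of the anal canal. The summed level of 4 markers of this epithelium, the keratins Krt5, Krt13 and Krt14 and the factor Trp63, was at most 5.63 TPM in the 12 CD libraries. It was 632, 605, 844 and 103 TPM in HFD F replicates 1, 3, 4 and 5, and 142 and 43.3 TPM in HFD M replicates 2 and 4. In the other 6 HFD libraries it was at most 1.68 TPM, and in 3 of them (HFD F replicate 6 and HFD M replicates 1 and 3) it was below the lowest CD library, which was at 0.152 TPM. Over the whole list of 25 squamous genes, whose most abundant member Klf5 is also a gene of intestinal crypts, the summed level was 98.8 to 246 TPM in CD F, 120.2 to 2289 TPM in HFD F, 133 to 261 TPM in CD M and 129 to 899 TPM in HFD M. Results that these libraries bear on are given with all 24 libraries and with the 18 that remain without them, which hold 12 CD libraries, 2 HFD F and 4 HFD M.

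**Figure D1:**
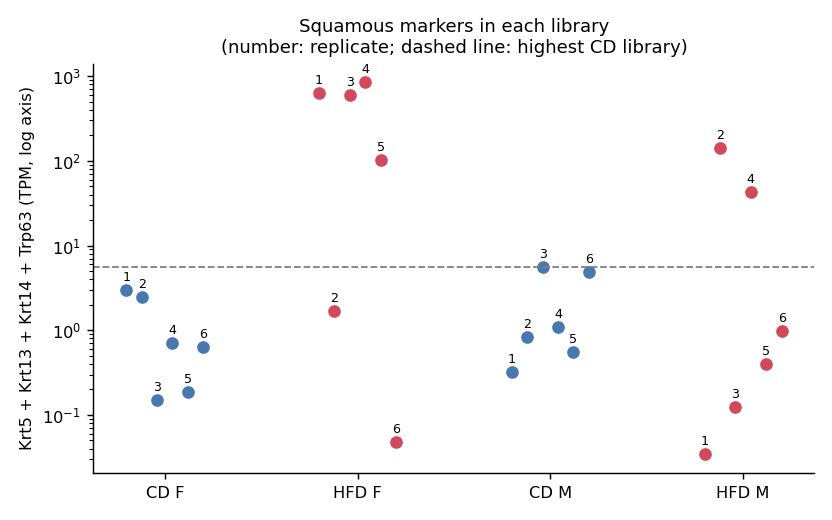
Summed TPM (log axis) of the squamous markers Krt5, Krt13, Krt14 and Trp63 in each of the 24 libraries, by group, with the replicate number above each point and a dashed line at the highest CD library. Points above the line are the 4 HFD F and 2 HFD M libraries between 43.3 and 844 TPM, while the other 6 HFD libraries lie at or under 1.68 TPM.

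Over both sexes, 66 of 15800 genes tested (0.418%) had an adjusted p under 0.05 between HFD and CD, 59 higher on HFD (0.373%) and 7 lower (0.0443%). The genes fell into a set of 30 that kept p under 0.05 (unadjusted) and their direction without the 6 libraries with squamous markers, and a set of 36 that did not. The 30 genes include clock genes (Tef, Ciart, Per3, Arntl), a subunit of the epithelial sodium channel (Scnn1g), the lipase inhibitor Angptl4, immunoglobulin genes (Igkc, Ighv6-3, Igkv8-21) and the monocyte antigen Ly6c2; 23 of them were higher on HFD and 7 lower. The other 36 were all higher on HFD and all under 1 TPM in the mean of the CD libraries (at most 0.597 TPM). Of these 36, 12 are on the squamous list. Tmprss11a, Krt6b, Calm4 and Rptn are not on that list but are also known from squamous or cornified epithelium. The 12 therefore understate the squamous genes among the 36. For squamous genes that loss follows from the way the 6 libraries were chosen. Without the 6 libraries, 26 of these 36 had too few counts for a test and 10 had p of 0.05 or above or the other direction. At the threshold of the study, read here as an unadjusted p under 0.05 and an absolute log2 difference over 0.4, 428 genes differed (2.71%), 337 higher (2.13%) and 91 lower (0.576%). At an unadjusted p under 0.05 alone, 932 genes differed (5.9%), where 790 would be reached by chance among 15800 independent tests, so that most single genes with such a p cannot be taken as changed.

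The number of genes past the adjusted threshold depended on single libraries. Without CD F replicate 3 or replicate 5 it was 1, which was Ly6c2, and without CD F replicate 2 it was 4. It was 43 without CD F replicate 1, 41 without CD F replicate 6, 30 without HFD F replicate 1, 35 without HFD F replicate 4 and 27 without HFD M replicate 2. It was 114 without HFD F replicate 2, 119 without HFD F replicate 6, and 114, 105, 106 and 108 without HFD M replicates 1, 3, 5 and 6. In the other 10 fits with 1 library left out it lay within 1.5 times the count over all. In each of the 24 fits, all 66 genes kept their direction and an unadjusted p under 0.05. The 66 were selected on these same libraries by a far stricter threshold, so that this count was nearly fixed beforehand and is no independent support. The adjusted p of Tef, for example, was 0.0254 with all libraries and 0.0556 without CD F replicate 3, in edgeR's quasi-likelihood test.

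**Figure D2:**
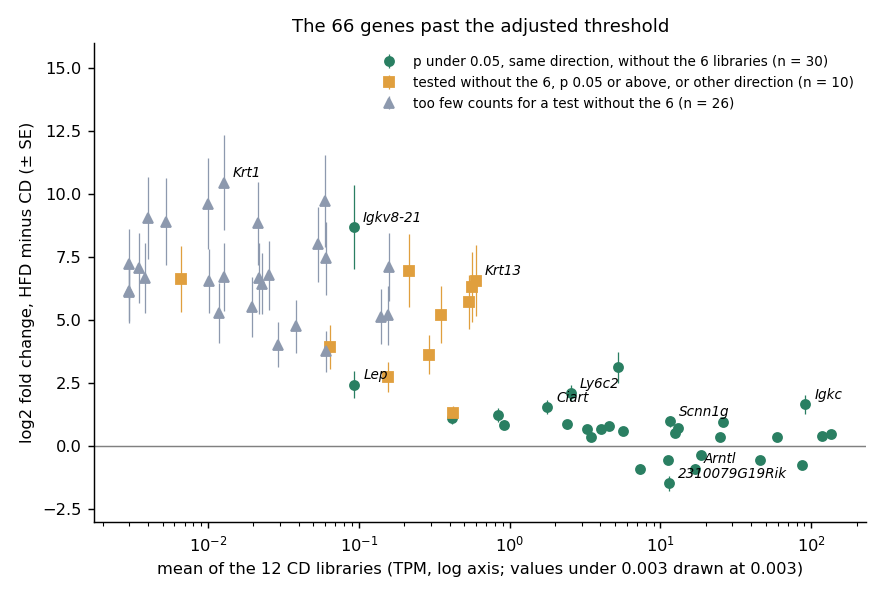
Log2 fold change (HFD minus CD, points with standard error) of the 66 genes past the adjusted threshold against their mean in the 12 CD libraries (TPM, log axis), with circles for the 30 genes that kept p under 0.05 without the 6 libraries with squamous markers, squares for the 10 that did not and triangles for the 26 with too few counts. Squares and triangles all lie under 1 TPM on CD, and all but a few of the circles lie above it, and among the circles Igkv8-21, at 0.0923 TPM on CD, is highest at 8.69 (a fitted value that rests on 0 or 1 count in each CD library) and 2310079G19Rik lowest at −1.47.

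Within each sex the same 24 libraries gave 4 genes past the adjusted threshold in females (0.0253%; Ly6c2, Ciart, Tef and Lifr) and 0 in males (0%), where the lowest adjusted p was 0.0589 in edgeR. In males 1110 genes had an unadjusted p under 0.05 (7.03%) and DESeq2 called 28, while it called 147 in females. In females 989 genes had an unadjusted p under 0.05 (6.26%), and 694 (4.39%) in females and 537 (3.4%) in males were past the study's threshold. The same sign in both sexes was seen for 6999 of all 15800 genes (44.3%), for 417 of the 428 genes at the study's threshold and for all 66 genes past the adjusted one, which a fit over both sexes favours by its design. No gene had 6 HFD and 6 CD mice without overlap in females and, in the same direction, in males (0%), in log2 CPM, the counts scaled to the depth of each library. The test of the difference between the sexes, the interaction of sex and diet, gave 0 genes past the adjusted threshold (lowest adjusted p = 0.104), with 1066 genes at an unadjusted p under 0.05 (6.75%) and 8 genes past the adjusted threshold in DESeq2. Of the 30 genes named above, 7 had an interaction p under 0.05, unadjusted, and none passed the adjusted threshold. The larger fold was in females for Ciart, Lifr, Ly6c2 and Tef (adjusted values between 0.397 and 0.63) and in males for 2310079G19Rik, Tmem237 and Eml6 (0.727, 0.733 and 0.665).

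The clock genes were set to be named whatever their p-value, in lists of activators, repressors and output factors. These lists held 1, 2 and 1 genes past the adjusted threshold, and the macrophage and colonocyte lists held 2 each. All lists were chosen with earlier results of these data known, so that such counts do not rank pathways. Of the clock activators, Arntl fell, and of the clock repressors and output factors, Ciart, Per3 and Tef rose. Arntl (chr7:113207465-113314122, GRCm38), the activator also known as Bmal1, was at 11.2, 22.4 and 30.7 TPM (lowest, median and highest mouse) in CD F and at 6.43, 10.2 and 16 TPM in HFD F. In males it was at 5.19, 12.1 and 14.5 TPM on CD and 3.85, 8.26 and 10.5 TPM on HFD. The HFD median was below the CD median in both sexes, and the ranges overlapped in both. Its log2 fold change was −0.88 ± 0.20 (SE, 12 against 12; adjusted p = 0.0466; −1.10 in females and −0.66 in males). The permutation test of log2 CPM, two-sided with diet permuted within sex, gave p = 0.00099. In 16 of the 24 fits that left out 1 library Arntl did not pass.

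Npas2, the partner of Bmal1 that can stand in for Clock, was at 9.28, 12.8 and 20.0 TPM in CD F and 4.4, 7.59 and 12.6 TPM in HFD F. In CD M it was at 6.13, 6.74 and 11.2 TPM and in HFD M at 3.33, 5.14 and 9.30 TPM. Its log2 fold change of −0.78 ± 0.20 was of nearly the same size in females (−0.85) and males (−0.71), but its adjusted p was 0.113, so that it did not pass. Clock itself was at 61.1 ± 7.75 TPM on CD and 62.5 ± 13.4 TPM on HFD (SD, n = 12), and its log2 fold change of −0.13 on counts (adjusted p = 0.789) became 0.016 on the log2(TPM + 1) scale. Among the receptors that activate Arntl, Rora and Rorb had log2 fold changes of 0.08 and 0.32, each with an adjusted p over 0.9. Over the 6 activators, 0 passed the adjusted threshold upwards and 1 downwards, 1 and 3 had an unadjusted p under 0.05, and the median log2 fold change was −0.03. Over all genes tested, 3.87% were higher and 2.03% lower at that unadjusted p, 0.373% and 0.0443% at the adjusted threshold, and the median was −0.0026. These shares are the background for each list of genes described here with 24 libraries. In the 18 libraries 2 activators were higher and 2 lower at an unadjusted p under 0.05, where 4.03% and 3.6% of all genes were.

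**Figure D3:**
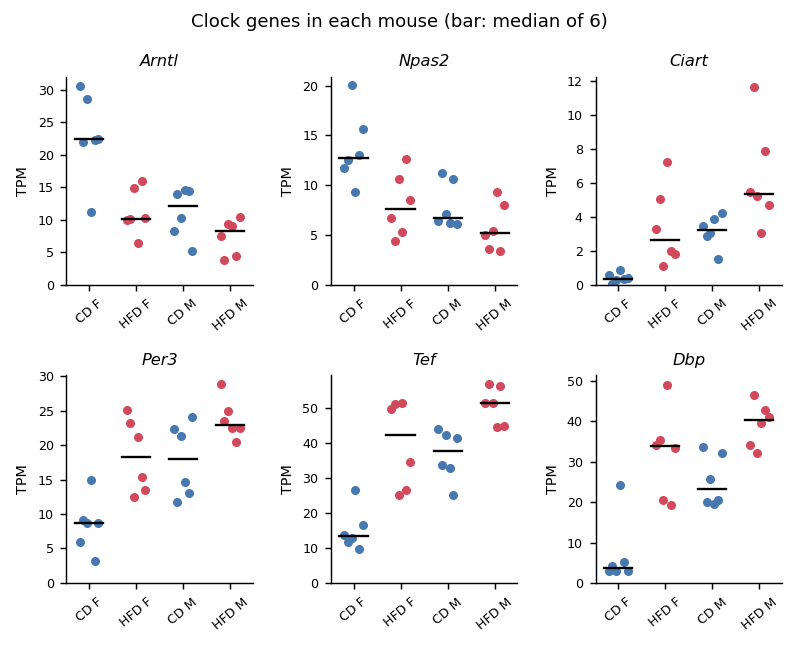
TPM of 6 clock genes in each of the 24 mice, by group, with a bar at the median of 6 mice. Arntl and Npas2 are lower and Ciart, Per3, Tef and Dbp higher in the HFD median than in the CD median of the same sex, and CD F replicate 4 (24.3 TPM) stands apart from the other CD females in Dbp.

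Ciart, a repressor of Bmal1 and Clock, was nearly absent in CD F, at 0.0539, 0.346 and 0.838 TPM, and reached 1.09, 2.62 and 7.21 TPM in HFD F, with no overlap. In males it was at 1.49, 3.24 and 4.25 TPM on CD and 3.03, 5.35 and 11.7 TPM on HFD, with overlap. It rose 2.95-fold over both sexes (log2 1.56 ± 0.29, adjusted p = 0.0254, permutation p = 8e-05). Per3, a period gene, was at 3.13, 8.71 and 15.0 TPM in CD F, 12.5, 18.3 and 25.1 TPM in HFD F, 11.8, 18 and 24 TPM in CD M and 20.4, 23.0 and 28.8 TPM in HFD M. Its groups overlapped in both sexes, and it rose 1.64-fold (log2 0.72 ± 0.16, adjusted p = 0.0439), and did not pass in 13 of the 24 fits that left out 1 library. Nr1d2, which encodes Rev-erbβ, came close to the threshold with a log2 fold change of 0.61 ± 0.15 (adjusted p = 0.0607), 0.94 in females and 0.29 in males. Bhlhe41 (0.85), Per2 (0.52), Per1 (0.46) and Cry1 (−0.43) had unadjusted p-values between 0.00147 and 0.0441. Nr1d1 (0.23), Cry2 (0.17) and Bhlhe40 (0.07) had an unadjusted p over 0.05. Nr1d1, which encodes Rev-erbα, went from a mean of 20.6 to 41.9 TPM in females and from 48.8 to 35.8 TPM in males (interaction adjusted p = 0.694). Over the 10 repressors, 2 rose and 0 fell, 6 and 1 had an unadjusted p under 0.05 (3.87% and 2.03% of all genes), and the median was 0.49. The 18 libraries gave 5 higher and 0 lower at that p, with a median of 0.40.

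Tef, a PAR bZIP factor of the clock's output, had one of the lowest p-values of all genes. It was at 9.64, 13.3 and 26.7 TPM in CD F and 25.2, 42.3 and 51.5 TPM in HFD F, where only the highest CD mouse, replicate 4, reached the lowest HFD mouse. In males it was at 25.1, 37.7 and 44.1 TPM on CD and 44.6, 51.5 and 57.1 TPM on HFD, without overlap. It rose 1.96-fold (log2 0.97 ± 0.17, adjusted p = 0.0254; 1.38 in females and 0.57 in males), with a permutation p of 1e-05, the smallest that 100000 permutations can give. Dbp had a larger fold but a larger spread, at 2.89, 3.58 and 24.3 TPM in CD F, 19.2, 33.8 and 49.1 TPM in HFD F, 19.5, 23.2 and 33.6 TPM in CD M and 32.1, 40.3 and 46.5 TPM in HFD M. Its log2 fold change of 1.19 ± 0.34 had an adjusted p of 0.208. CD F replicate 4 alone accounts for the overlap in females. Hlf (0.52, adjusted p = 0.299), Nfil3 (−0.54, adjusted p = 0.651) and Wee1 (0.31, adjusted p = 0.685), a kinase gene that the clock is known to drive, did not pass the adjusted threshold. Over the 5 output factors, 1 rose and 0 fell, 4 and 1 had an unadjusted p under 0.05 (3.87% and 2.03% of all genes), and the median was 0.52. The 18 libraries gave 3 higher and 0 lower at that p, with a median of 0.40. No clock gene passed the adjusted threshold in the 18 libraries. There the log2 fold change was 0.95 for Tef (adjusted p = 0.0954), 1.39 for Ciart (adjusted p = 0.0991), 0.65 for Per3 (adjusted p = 0.417), −0.84 for Arntl (adjusted p = 0.324) and −0.97 for Npas2 (adjusted p = 0.133). Per1 (0.23), Hlf (0.20), Clock (−0.06), Cry1 (−0.36) and Nfil3 (−0.39), which had an unadjusted p under 0.05 with 24 libraries, did not have one with 18.

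**Figure D4:**
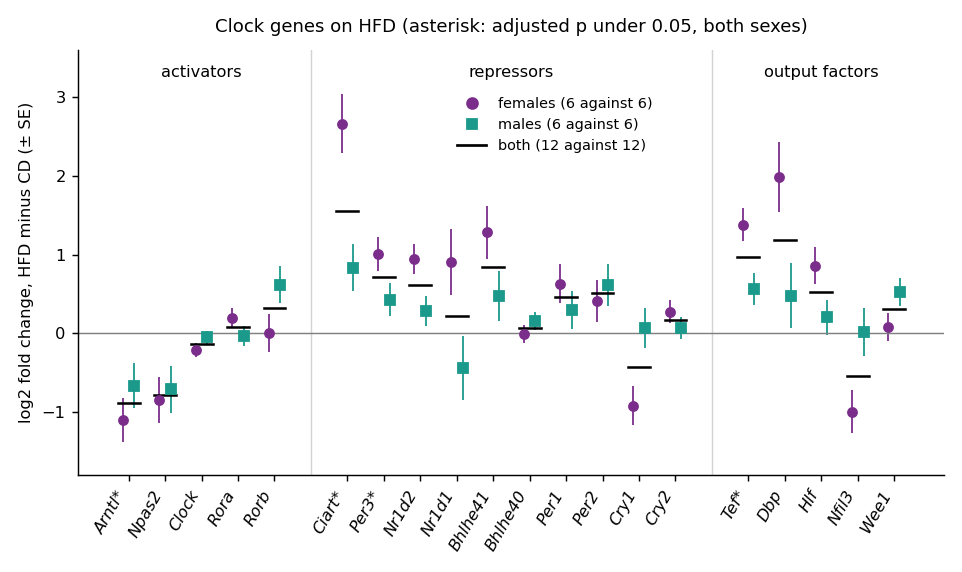
Log2 fold change (HFD minus CD, with standard error) of 20 clock genes in females (circles, 6 against 6) and males (squares, 6 against 6), with a bar for both sexes together (12 against 12), ordered by role. Arntl and Npas2 are below 0 in both sexes, and the repressors and output factors Ciart, Per3, Nr1d2 and Tef are above 0 in both, with the larger fold in females.

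Promoter sequences are shown for Ciart, Per3 and Tef, the repressors and the output factor that rose, because they hold motifs that clock factors bind. RefSeq windows of 250 bases before a gene start (GRCm38.p6) were found for 17 of the 21 clock genes, in 23 windows. Both strands were searched for the E-box CACGTG, which reads the same on either strand, the D-box TTATGTAA, the Rev-erb site TAGGTCA and the direct repeat bound by PPAR, which can overlap the Rev-erb site. The stretches below run 5′ to 3′ on the strand of the gene, with the motifs in capitals.
Ciart, chr3:95882255-95882356, minus strand, 3 E-boxes between 116 and 44 bases before the start: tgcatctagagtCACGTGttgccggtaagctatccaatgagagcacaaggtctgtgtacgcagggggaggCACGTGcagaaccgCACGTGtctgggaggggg
Per3, chr4:151044804-151044882, minus strand, 2 D-boxes between 205 and 158 bases before the start: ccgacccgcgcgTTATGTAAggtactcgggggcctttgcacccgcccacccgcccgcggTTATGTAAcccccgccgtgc
Tef, chr15:81811264-81811293, plus strand, 1 E-box 138 bases before an internal start of the gene: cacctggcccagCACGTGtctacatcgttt
An E-box was found in 6 of the 23 windows, of 5 genes (Ciart, Tef, Per1, Cry1 and Bhlhe41), and in 6.02% of all 32851 windows of the same length. A D-box was found for 1 clock gene, Per3, and in 0.819% of all windows. The Rev-erb site was found for 1 clock gene, Nfil3 (2.23% of all windows), and the PPAR repeat for 0 (0.0335% of all windows). A match says that the letters are there, not that a factor binds, and the windows of Arntl, Npas2 and Dbp hold none of these letters.

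Ly6c2, an antigen of inflammatory monocytes, had the lowest p-value of all genes and was called in each of the 24 fits with 1 library left out. It was at 1.37, 1.89 and 2.38 TPM in CD F and 4.13, 9.49 and 12.9 TPM in HFD F, with no overlap. In males it was at 2.66, 3.31 and 3.73 TPM on CD and 2.53, 3.62 and 4.15 TPM on HFD, so that the ranges overlapped almost whole. It rose 4.33-fold on counts (log2 2.11 ± 0.32, adjusted p = 0.00537), 2.77 in females and 1.03 in males on the log2 scale. These counts were few, 1 to 10 in a CD library and 3 to 63 in an HFD library, and the split of reads between Ly6c2 and its near-identical neighbour Ly6c1 is uncertain. On log2(TPM + 1) the fold change was 0.93 and did not pass (adjusted p = 0.0931 with limma). Of the 20 macrophage genes on the list, 2 rose and 0 fell, and the median was 0.02. Csf1r, Adgre1 and Cd68, which define macrophages, had log2 fold changes of −0.11, −0.03 and 0.13.

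Herpud1, Fa2h and Ccbl1 rose, and each failed to pass in at most 3 of the 24 fits that left out 1 library. Herpud1 (chr8:94386438-94395377), a membrane protein of the endoplasmic reticulum that takes part in the removal of misfolded proteins, was at 45.5, 55.9 and 65.5 TPM in CD F and 66.8, 77.2 and 81.2 TPM in HFD F. In males it was at 56.0, 60.7 and 69.3 TPM on CD and 69.6, 83.7 and 96.1 TPM on HFD. In TPM, no HFD mouse was as low as a CD mouse of its sex, although in log2 CPM the groups overlapped. It rose 1.31-fold (log2 0.39 ± 0.07, adjusted p = 0.0254, permutation p = 5e-05), 0.36 in females and 0.41 in males. It was the only one of 21 tested genes for folding in the endoplasmic reticulum to pass the adjusted threshold, and none passed the study's threshold. The median of that list was 0.06, while 2 of the 21 were higher at an unadjusted p under 0.05 with 18 libraries. None of 15 heat shock genes had p under 0.05 (median −0.01).

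Fa2h, which puts a hydroxyl group on fatty acids of sphingolipids, was at 2.32, 3.50 and 4.83 TPM in CD F, 6.66, 7.81 and 9.45 TPM in HFD F, 3.42, 6.03 and 7.10 TPM in CD M and 6.12, 6.76 and 14.8 TPM in HFD M. The ranges were apart in females and overlapped in males. It rose 1.74-fold (log2 0.80 ± 0.15, adjusted p = 0.0254). Ccbl1 (Kyat1), a kynurenine aminotransferase, was at 10.5, 13.8 and 21.1 TPM in CD F, 15.5, 17.4 and 25.9 TPM in HFD F, 8.64, 10.3 and 12.7 TPM in CD M and 13.7, 16.5 and 19.8 TPM in HFD M. Its ranges were apart in males and overlapped in females. It rose 1.43-fold (log2 0.51 ± 0.10, adjusted p = 0.0254).

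Among genes that fell, 2310079G19Rik had the lowest p-value. It was at 8.74, 13.4 and 32.8 TPM in CD M and 1.74, 3.66 and 6.62 TPM in HFD M, without overlap, and at 2.28, 5.59 and 13.8 TPM in CD F and 2, 3.89 and 6.35 TPM in HFD F. It fell by 1.47 on the log2 scale (SE 0.29, adjusted p = 0.0254), by 2.04 in males and by 0.88 in females. Lifr, the receptor of leukemia inhibitory factor, was at 9.60, 13.4 and 16.9 TPM in CD F, 6.08, 8.70 and 14.0 TPM in HFD F, 7.53, 9.57 and 10.8 TPM in CD M and 5.91, 8.10 and 13.7 TPM in HFD M, with overlap in both sexes in TPM, though not in females in log2 CPM. It fell by 0.54 (SE 0.11, adjusted p = 0.0254), mainly through the females (−0.83, and −0.24 in males). Cpm, a membrane-bound carboxypeptidase, fell by 0.56 (SE 0.12, adjusted p = 0.03), from 46.0 ± 11.2 to 30.8 ± 5.90 TPM (SD, n = 12). Nt5c1a, a cytosolic nucleotidase, fell by 0.89, and Socs2, a suppressor of cytokine and growth hormone signalling, fell by 0.33, with adjusted p of 0.0424 and 0.0466. They did not pass in 15 and 20 of the 24 fits that left out 1 library.

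**Figure D5:**
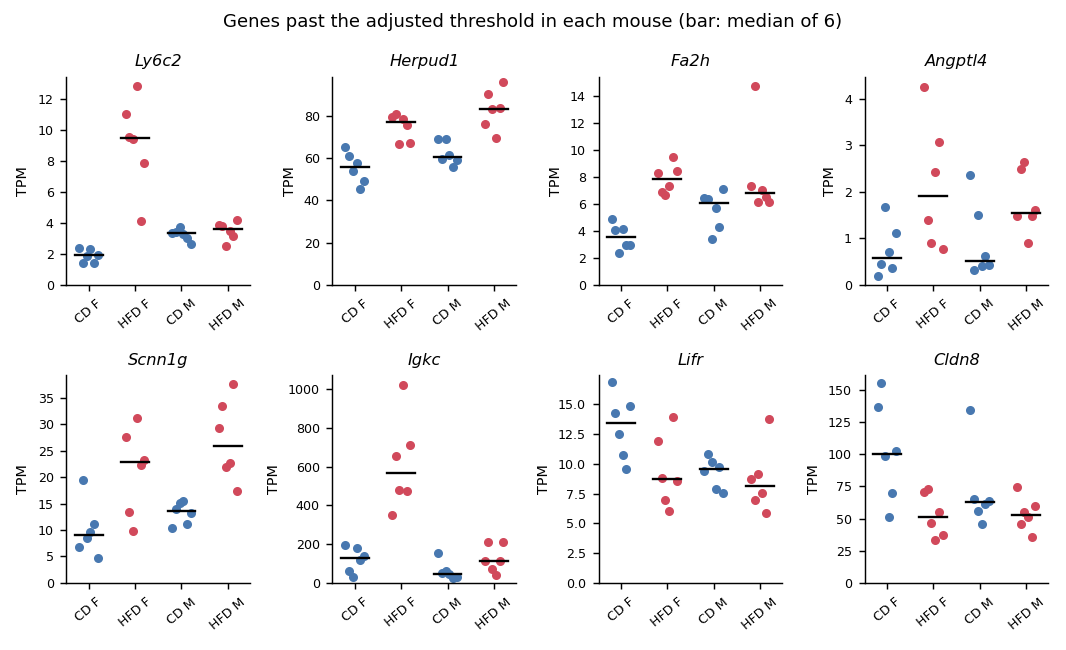
TPM of 8 genes past the adjusted threshold in each of the 24 mice, by group, with a bar at the median of 6 mice. Herpud1 is apart by diet within each sex, Ly6c2, Fa2h and Igkc are apart in females and Scnn1g in males, and Lifr and Cldn8 are lower on HFD with overlap in both sexes.

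Scnn1g and Atp12a, both on the colonocyte list, rose, and Cldn8, which is on none of the gene lists, fell. Sodium enters distal colonocytes through the epithelial sodium channel ENaC, built from the subunits Scnn1a, Scnn1b and Scnn1g, and aldosterone is known to raise the latter pair in colon. Scnn1g (chr7:121734479-121768475) was at 4.71, 9.07 and 19.5 TPM in CD F and 9.85, 22.8 and 31.2 TPM in HFD F, and at 10.4, 13.6 and 15.5 TPM in CD M and 17.3, 25.9 and 37.6 TPM in HFD M. The ranges were apart in males and overlapped in females. It rose 1.99-fold (log2 0.99 ± 0.21, adjusted p = 0.0315), by 0.96 in females and 1.02 in males. Scnn1b had a log2 fold change of 0.46 ± 0.15 (adjusted p = 0.301). Scnn1a had 0.02 ± 0.14 (adjusted p = 1.0), and its sign turned on log2(TPM + 1). Sgk1, a kinase that keeps ENaC at the membrane, went from 43.8 ± 18.7 to 68.2 ± 22.5 TPM (log2 0.59, adjusted p = 0.506).

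Atp12a, the colonic proton and potassium pump, was at 92, 139.9 and 191 TPM in CD F, 131, 184 and 215 TPM in HFD F, 96.5, 136 and 148 TPM in CD M and 157, 188 and 320.1 TPM in HFD M. It was higher in every HFD male than in every CD male, and overlapped in females. It rose 1.41-fold (log2 0.50 ± 0.12, adjusted p = 0.0466), and did not pass in 16 of the 24 fits that left out 1 library. Cldn8, a claudin that seals the paracellular path for sodium, was at 51.6, 100.3 and 155 TPM in CD F, 33.5, 51 and 73.3 TPM in HFD F, 46.0, 62.8 and 134.7 TPM in CD M and 35.7, 53.2 and 74.4 TPM in HFD M. It fell by 0.74 on the log2 scale (SE 0.16, adjusted p = 0.0389), with overlap in both sexes. In 12 of the 24 fits that left out 1 library Cldn8 did not pass. Over the 24 colonocyte genes tested, 2 rose (Scnn1g and Atp12a) and 0 fell, 3 and 0 had an unadjusted p under 0.05, and the median was 0.01. In the 18 libraries 0 passed the adjusted threshold, 9 were higher and 0 lower at an unadjusted p under 0.05 (4.03% and 3.6% of all genes), and the median was 0.08. Slc7a9, a subunit of an amino acid transporter, rose by 0.71 (adjusted p = 0.0359), and Smim24, a small membrane protein, rose from 117 ± 26.8 to 165 ± 30.6 TPM (log2 0.43, adjusted p = 0.033). Slc7a9, Smim24 and the butyrophilin-like gene Btnl6 (0.39, adjusted p = 0.0424), of a family known for its role with intraepithelial lymphocytes, were chosen for mention after their values were seen, as were Gpr83 (0.86), Clec2e (0.87), Tmem237 (0.63) and Nebl (1.12), which also rose. Btnl6 did not pass in 13 of the 24 fits that left out 1 library. Nebl was at 0.36 in the 18 libraries (adjusted p = 0.652) and at 0.38 with a squamous score in the fit.

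Of the genes of fatty acid uptake and use, Angptl4 rose, and no other passed the adjusted threshold. Angptl4, a secreted inhibitor of lipoprotein lipase, was at 0.181, 0.572 and 1.68 TPM in CD F, 0.773, 1.91 and 4.26 TPM in HFD F, 0.315, 0.511 and 2.37 TPM in CD M and 0.893, 1.54 and 2.63 TPM in HFD M. The groups overlapped in both sexes, through 2 CD mice of each sex that were above 1 TPM. It rose 2.38-fold (log2 1.25 ± 0.26, adjusted p = 0.03) with 24 libraries, and had 0.90 (adjusted p = 0.432) with 18, where it did not pass. Of 26 tested genes of fatty acid oxidation, 0 passed the adjusted threshold, 7 were higher and 0 lower at an unadjusted p under 0.05 (3.87% and 2.03% of all genes), and the median was 0.11. Cpt1a, the entry step of mitochondrial oxidation, had a log2 fold change of 0.18 (adjusted p = 0.399), Acot1 0.58 (adjusted p = 0.404), Acaa2 0.20 (adjusted p = 0.548) and Acsl1 0.21 (adjusted p = 0.609). Pdk4, which turns cells from glucose to fat, had 0.34 (adjusted p = 0.747). In all, 4 of 10 genes of ketogenesis and fasting were higher at that p and 0 lower, with a median of 0.15. In the 18 libraries without squamous markers the log2 fold change was 0.22 for Cpt1a, 0.18 for Acot1, 0.16 for Acaa2, 0.08 for Acsl1 and 0.03 for Pdk4. There 4 oxidation genes and 3 ketogenesis genes were higher and 0 lower at an unadjusted p under 0.05.

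In lipid uptake and droplets, 5 of 20 genes were higher and 0 lower at an unadjusted p under 0.05, with a median of 0.15. Cd36, the fatty acid transporter, was at 4.72, 7.98 and 9.14 TPM in CD F, 8.14, 11.2 and 18.5 TPM in HFD F, 9.47, 10.4 and 18.3 TPM in CD M and 8.85, 15.0 and 22.1 TPM in HFD M (log2 0.46 ± 0.13, adjusted p = 0.18). Dgat2, the last step of triglyceride synthesis, had 0.57 (adjusted p = 0.171) and Plin2, a droplet coat protein, 0.20 (adjusted p = 0.843). Fabp5 had 2.93 (adjusted p = 0.0585) with all 24 libraries and 0.21 (adjusted p = 0.887) in the 18, and this fatty acid binding protein is also known from squamous epithelium. Of 18 genes of fatty acid synthesis, 0 were higher and 2 lower at an unadjusted p under 0.05, Thrsp (−1.41, adjusted p = 0.234) and Scd2 (−0.29, adjusted p = 0.313), with a median of −0.04. Neither had such a p with 18 libraries (−1.04 and −0.24), where 1 gene of the list was higher and 1 lower. Scd1, the main delta-9 desaturase, had −0.48 (adjusted p = 0.998) with 24 libraries and −1.03 (adjusted p = 0.184) with 18, and Fasn had −0.17 (adjusted p = 1.0). Of 23 sterol synthesis genes 1 was higher and 1 lower, and of 9 bile acid genes none had such a p. With 18 libraries it was 2 higher and 0 lower for sterol synthesis and 2 higher and 1 lower for bile acids.

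Lep, which encodes leptin and is made by adipocytes, rose on HFD. It was at 0, 0.0514 and 0.156 TPM in CD F, 0.130, 0.354 and 2.10 TPM in HFD F, 0, 0.0692 and 0.438 TPM in CD M and 0.279, 0.460 and 0.657 TPM in HFD M, with 0 to 56 counts in a library. Its log2 fold change was 2.45 ± 0.52 (adjusted p = 0.0315) with 24 libraries, and 1.78 (adjusted p = 0.421) with 18, where it did not pass. Of the 13 adipocyte genes tested, 1 rose and 0 fell, and 3 and 0 had an unadjusted p under 0.05, with 1 and 1 in the 18 libraries. The markers Adipoq and Plin1 had 0.36 and 0.79, both with an adjusted p of 1.0, and were at 0 counts in 1 and 3 libraries. The summed level of the list, led by Pck1, was 66.9 to 137 TPM in CD F, 91.2 to 184 TPM in HFD F, 67.0 to 131 TPM in CD M and 96.9 to 246 TPM in HFD M. With a score of the adipocyte genes in the fit, 4 genes passed the adjusted threshold in place of 66, and the part of adipocytes in the other results was not tested. In such bulk samples, more cells of a type and more RNA in each cell cannot be told apart.

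Of the plasma cell genes, Igkc rose, and the medians of Jchain and Igha were higher on HFD in both sexes. Igkc, the constant part of the kappa light chain, was at 31.0, 129 and 195 TPM in CD F and 349, 567 and 1022 TPM in HFD F, with no overlap, and at 26.6, 48.3 and 154 TPM in CD M and 40.2, 113 and 212 TPM in HFD M, with overlap. It rose 3.18-fold (log2 1.67 ± 0.37, adjusted p = 0.0458; 2.27 in females and 1.03 in males; interaction adjusted p = 0.741), and did not pass in 16 of the 24 fits that left out 1 library. Jchain, the joining chain of IgA, had a log2 fold change of 1.69 (adjusted p = 0.15), Igha 1.60 (adjusted p = 0.228), Iglc1 2.59 (adjusted p = 0.253) and Mzb1 1.27 (adjusted p = 0.741), none past the adjusted threshold. For Iglc1, HFD F replicate 1 was at 491 TPM and the other HFD F mice at 3.97 to 39.8 TPM. The 18 libraries, which do not hold that mouse, gave 1.70 for Iglc1. Of 9 plasma cell genes tested, 1 rose and 0 fell, 6 and 0 had an unadjusted p under 0.05, and the median was 1.27, with 1.36 in females and 0.92 in males. The summed level of the 11 genes was 145 to 526 TPM in CD F, 804 to 1654 TPM in HFD F, 138 to 448 TPM in CD M and 151 to 564 TPM in HFD M. In the 18 libraries the median was 1.58, and again 6 genes had p under 0.05. Of 14 B cell genes none had p under 0.05, and their median was −0.45 in females and 0.67 in males.

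Of the single variable genes, Ighv6-3 rose by 3.13 (SE 0.61, adjusted p = 0.0254), and its ranges were apart in males (0 to 2.31 TPM on CD, 2.72 to 30.1 TPM on HFD) and overlapped in females (1.34 to 26.0 TPM on CD, 8.49 to 256 TPM on HFD). Igkv8-21 was at 0 or 1 count in each CD library and at 1 to 1924 counts in HFD F, where replicate 2 alone was at 608 TPM. In HFD M it was at 0 TPM in 4 mice and at 85 counts in replicate 2. Variable genes share long stretches of sequence with each other and mark single antibody clones, so that their counts are uncertain and their levels in a few mice weigh heavily.

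Mast cell proteases were low, and 4 of 7 tested genes of mast cells and granulocytes were higher on HFD at an unadjusted p under 0.05 and 0 lower, with a median of 0.93. Cpa3, a carboxypeptidase of mast cells, was at 0, 0.262 and 0.770 TPM in CD F, 0.655, 0.939 and 1.56 TPM in HFD F, 0.384, 1.03 and 1.55 TPM in CD M and 0.652, 1.87 and 2.53 TPM in HFD M (log2 1.12 ± 0.30, adjusted p = 0.119). Csf3r (1.07), Tpsb2 (0.98) and Mcpt4 (0.93) were the other 3, with unadjusted p-values between 0.00162 and 0.012. In the 18 libraries 2 genes of the list were higher and 1 lower at an unadjusted p under 0.05, with a median of 0.58. Cpa3 was at 1.02 there, and Csf3r (0.61), Tpsb2 (0.56) and Mcpt4 (0.66) no longer had such a p. Epx, a marker of eosinophils, was at 0 counts in all 24 libraries. Of 23 interferon response genes, 6 were higher and 0 lower at an unadjusted p under 0.05 (3.87% and 2.03% of all genes), among them Iigp1 (0.82), Gbp5 (0.60) and Ifit3 (0.56), and the median was 0.13. At that p 3 were higher and 0 lower in the 18 libraries, where Ifit3 (0.55) no longer had such a p. None of the 10 MHC class II genes and none of the 9 antimicrobial genes had p under 0.05, and of 15 cytokine and chemokine genes 2 were higher. With 18 libraries 3 of 11 antimicrobial genes were higher and 1 lower at that p, and 1 cytokine gene was higher and 1 lower.

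Of 17 tested genes of crypt stem cells and Wnt signalling, 0 passed the adjusted threshold, 6 were lower and 1 higher at an unadjusted p under 0.05 (2.03% and 3.87% of all genes), and the median was −0.12, with −0.03 in females and −0.29 in males. Ascl2, a factor of stem cell identity, had −0.58 (adjusted p = 0.243), from 1.96 ± 0.576 to 1.36 ± 0.379 TPM. Lef1 (−0.45), Axin2 (−0.28), Ccnd2 (−0.27), Sox9 (−0.24) and Ephb3 (−0.24) were the other 5. Ccnd2, cyclin D2, had −0.57 in males and 0.03 in females (interaction adjusted p = 0.41). Cd44 was the member that was higher (0.40, adjusted p = 0.764), and it was −0.10 in the 18 libraries. Lgr5, the stem cell marker, had −0.02. Of the list, 5 genes were lower and 0 higher in the 18 libraries at an unadjusted p under 0.05, no longer with Axin2 (−0.27) and Sox9 (−0.13). None of 38 cell cycle genes had p under 0.05 (median −0.09), whereas in the 18 libraries 10 were lower and 0 higher at that p (3.6% and 4.03% of all genes, 7.62% in all) with a median of −0.37. The lists of smooth muscle (median −0.03), enteroendocrine cells (0.04) and enteric neurons, glia and pacemaker cells (−0.04) had 0 genes with p under 0.05, and goblet genes had 1, which was lower. With 18 libraries 4 of 20 smooth muscle genes were lower and 0 higher at that p, with a median of −0.26, 2 enteroendocrine genes were higher and 0 lower, and 1 goblet gene was higher and 0 lower.

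The squamous list itself held 25 genes, of which 20 were tested. With all 24 libraries 12 rose and 0 fell, 18 had an unadjusted p under 0.05, and the median was 6.13, also when Sprr2d, which had 0 counts in every CD library, was set to a bound of 6.7 (against 3 counts over the 12 CD libraries). Only 12 of the 20 had enough counts for a test in the 18 libraries. The others passed the filter on low counts through the 6 libraries where they are high, which sets their direction. The count and the median of this list therefore carry no test of diet. Krt13, a keratin of wet squamous surfaces, was at 0, 0 and 1.62 TPM in CD F, 0, 170 and 417 TPM in HFD F, 0, 0 and 3.32 TPM in CD M and 0, 0.238 and 81.9 TPM in HFD M. Its log2 fold change was 6.57 (adjusted p = 0.0423). Values of squamous genes without the 6 libraries, or with a score of the same genes in the fit, are fixed by that choice and carry no test of diet. Krt1, Krt6b, Krt10, Sprr3, Calm4, Rptn, Tmprss11a and Trp63, all known from squamous or cornified epithelium, were past the adjusted threshold in the same way, and reads of Krt6b may be shared with Krt6a.

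Without the 6 libraries, 9 of 16564 genes tested (0.0543%) passed the adjusted threshold, all higher on HFD, and 4 of them were among the 66 (Ly6c2, Ighv6-3, Igkv8-21 and Smim24). The other genes described above did not pass there, among them Herpud1 (0.43, adjusted p = 0.0587), Ccbl1 (0.58, adjusted p = 0.0954), Atp12a (0.52, adjusted p = 0.184), Igkc (1.65, adjusted p = 0.215), Fa2h (0.59, adjusted p = 0.239), Scnn1g (0.93, adjusted p = 0.278), Lifr (−0.40, adjusted p = 0.432) and Cldn8 (−0.60, adjusted p = 0.503). At the study's threshold the balance changed from 337 higher and 91 lower to 256 higher and 301 lower. Of the remaining genes, Phyh, the first enzyme of peroxisomal alpha-oxidation, had a log2 fold change of 0.34 with 24 libraries (adjusted p = 0.0507) and 0.48 with 18 (adjusted p = 0.0265). Sstr1, a somatostatin receptor, had 0.70 and 1.11, Klk1, a tissue kallikrein, 0.33 and 0.71, and Cyp4f14, a fatty acid hydroxylase, 0.28 and 0.50, with adjusted p of 0.00938, 0.0198 and 0.0301 in the 18 libraries. These 4 were chosen for mention after their values were seen.

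Of the 24 genes that the study names for HFD, which it chose on these samples and which are therefore no independent evidence, 4 rose (among them Tef, Ciart and Per3) and 1 fell (Arntl), and 9 and 6 had an unadjusted p under 0.05. With 18 libraries 5 were higher and 8 lower at that p. Gsto1, a glutathione transferase, was at 149 to 199.7 TPM in CD F and 192 to 539 TPM in HFD F (log2 0.62, adjusted p = 0.0725), but had 0.15 (adjusted p = 0.699) in the 18 libraries. Thbs1, thrombospondin 1, had −0.62 (adjusted p = 0.0585) and kept −0.76 in the 18. Stk11, the kinase Lkb1, had −0.33 (adjusted p = 0.635), and Anxa1, annexin A1, 0.69 (adjusted p = 0.333) with 24 libraries and 0.05 with 18. Alox15, a lipoxygenase, had 0.90 in females and −1.35 in males (interaction adjusted p = 0.319), so that its effect over both sexes was −0.24 (adjusted p = 1.0). Igfbp5, a binding protein of insulin-like growth factors, had the lowest interaction p of all genes, from 17.6 ± 2.88 to 26.3 ± 3.41 TPM in females and from 39.1 ± 3.72 to 30.1 ± 5.14 TPM in males (adjusted p = 0.104).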

How the data were processed

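Per the labels and the methods of the study, the authors mapped reads with STAR (Trim Galore is also named in the processing notes of the submitters) to the mouse genome (mm10, GRCm38) and counted them on genes with featureCounts; the deposited counts are raw and cover 46078 genes. TPM values made by the authors with StringTie were used for levels. Counts of each library matched its own TPM best in 30 of 30 cases, and reads carry no molecular identifiers.

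Counts of 24 libraries were fitted with edgeR 4.0.16 in R 4.3.3 (filterByExpr, TMM normalization, robust quasi-likelihood F-test) with diet and sex as terms. A fit with 4 group means gave the effect within each sex and the interaction. Adjusted p-values are Benjamini-Hochberg values over all genes tested. Standard errors follow from the F statistic, and permutation p-values come from 100000 permutations of diet within sex. The p-values measure the spread between these mice. Gene coordinates are from GENCODE vM21.

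Genes named are the 12 with the lowest p in each direction past the adjusted threshold with at least 1 TPM. Genes without overlap of the diets in females and, in the same direction, in males were also to be named (0 genes). The clock genes, the genes named by the study, up to 4 called members and the most abundant gene of each list were named too. So were Ly6c2, Lifr and up to 5 genes by interaction. Other genes given as examples were chosen after their values were seen. A few genes are counted in their lists but not reported singly. The members and the gene lists were chosen with earlier results of these data known. Alternatives were other filters, scalings and tools (DESeq2 1.42.0, limma 3.58.1), marker scores, TPM, each library left out, the replicate number as a block and, chosen after seeing the data, the 18 libraries without squamous markers.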

Additional observations from a re-analysis of the deposited data

Results flagged for a closer look

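Dixon's 95% limit for 6 samples was applied to 108 combinations of a gene or marker sum with a group of 6 mice. In 15 of them 1 mouse was farther from the rest than this limit. Chance alone passes it about 1 in 20 times only where values are normally distributed. TPM cannot fall below 0, was not put on a log scale and was often 0, so that this rate does not apply here. In every case the mouse past the limit was the highest. CD F replicate 4 was at 53.45 TPM for Nr1d1 (others 7.501 to 22.38) and 24.34 TPM for Dbp (others 2.888 to 5.118). CD M replicate 1 was at 134.7 TPM for Cldn8, 154.4 TPM for Igkc, 0.2962 TPM for Igkv8-21 and 447.6 TPM for the summed plasma cell genes. HFD M replicate 2 was at 14.76 TPM for Fa2h, 31.8 TPM for Igkv8-21, 81.91 TPM for Krt13 and 142.5 TPM for the summed squamous markers. HFD F replicate 2 was at 608.3 TPM for Igkv8-21, and HFD F replicate 1 at 2.104 TPM for Lep. CD M replicate 2 was at 0.4379 TPM for Lep, CD F replicate 1 at 1.618 TPM for Krt13 and CD F replicate 2 at 0.77 TPM for Cpa3.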

How the results depend on the processing

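The 66 genes past the adjusted threshold were 4 with at least 10 counts in every library, 8 with a squamous score in the fit, 4 with an adipocyte score, 7 with limma voom, 145 with DESeq2 and 9 without the libraries with squamous markers. With 1 library left out they were 1 to 119. The 428 genes at the study's threshold were 1709 without a filter on low counts, 165 with at least 10 counts in every library, 932 with no fold change minimum and 384 to 514 with 1 library left out. They were 200 higher and 232 lower with the squamous score. The interaction went from 0 genes to 1 without a filter and 8 with DESeq2, and to 0 to 1 with 1 library left out. DESeq2 gave 147 genes in females in place of 4 and 28 in males in place of 0, and males had 7 without the libraries with squamous markers. On log2(TPM + 1) limma called 4 genes, Scnn1g, Tef, Herpud1 and Ciart. All 66 kept their direction with an unadjusted p under 0.05, which is no independent support, since they were selected on the same libraries. The causes were not tested.

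With the replicate number as a replicate block, 20 genes passed the adjusted threshold, and 1 had an interaction. Correlations of the deviations of same-numbered samples ran from −0.513 to 0.619. They averaged 0.121 between CD F and HFD F (0.0259 to 0.298), 0.0976 between CD M and HFD M, 0.213 between CD F and CD M and −0.0604 between HFD F and HFD M, and a sample correlated best with its own number in 1 to 3 of 6 cases. Since not every pair was over 0.1 and no label gives a pairing, the numbers were not taken to pair the mice.

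Of 100 named genes, 92 kept their sign under every alternative that was run for them. Krt1, Krt6b, Sprr3, Calm4, Rptn, Tmprss11a and Trp63 had too few counts for a test in the 18 libraries. The log2 fold change of Krt13 turned to −0.092 with the squamous score and −1.89 in the 18 libraries, that of Krt5 to −0.668 and −3.15, Krt14 to −0.604 and −0.852, Cd44 to −0.104 and −0.0981, and Rora to −0.0309 and −0.0106. For the squamous keratins these signs follow from the choice of libraries and score. Clock turned to 0.0159 on each TPM scale. Scnn1a turned to −0.033 with the squamous score, −0.0785 with the adipocyte score, −0.0475 and −0.0500 on the TPM scales, −0.0946 in the 18 libraries and lay between −0.0484 and 0.0838 with 1 library left out, below 0 in 6 fits. Igfbp5 turned to −0.0754 without sex in the fit, −0.144 with the squamous score, −0.0164 with the adipocyte score, −0.167 in the 18 libraries and lay between −0.0306 and 0.0611 with 1 library left out, below 0 in 8 fits. With 12 mice a diet and 8667177 to 14926918 counts a library, genes under about 1 TPM rest on few reads.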

Other observations

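The 6 libraries of HFD males given E2, which enter no comparison above, had squamous markers at 0.0335 to 1.041 TPM, and 0 of them were above the highest CD library. Their levels (lowest, median and highest mouse) are given as values only. Scnn1g was at 8.31, 9.11 and 14.8 TPM, Atp12a at 85.3, 111.8 and 125 TPM, Herpud1 at 52.5, 73.9 and 83.5 TPM and Angptl4 at 1.38, 2.08 and 2.94 TPM. Of the clock genes, Arntl was at 6.74, 14.1 and 22.8 TPM, Ciart at 0.356, 2.20 and 4.33 TPM and Tef at 21.6, 34.7 and 55.2 TPM.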
